A study of Mus musculus with 12 samples.

Results

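Almost every eukaryotic mRNA is cut downstream of its coding part and given a poly(A) tail at the cut. The cleavage and polyadenylation specificity factor (CPSF) reads the AAUAAA signal and cuts the RNA, the cleavage stimulation factor (CstF) binds the GU-rich stretch behind the cut, mammalian cleavage factor I (CFIm) binds UGUA upstream of it, and cleavage factor II (CFIIm) joins the complex and helps RNA polymerase II to terminate. Where a gene has several usable signals, the amount of these factors is known to bear on which of them is used, and lymphocyte activation is a classical setting in which such choices shift. The 10 genes described here encode core subunits of the machinery. CPSF is represented by Cpsf1, Cpsf2, Cpsf3 and Cpsf4, CFIm by Cpsf6 and Nudt21, CstF by Cstf1, Cstf2 and Cstf3, and CFIIm by Pcf11. They were taken by name, as 10 of the 55536 annotated genes of the count table, and all 10 passed the filter on low counts that left 18817 genes.

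The RNA came from OT-I CD8+ T cells, whose transgenic T cell receptor recognises the SIINFEKL peptide of ovalbumin, and its poly(A) part was sequenced. In the Ag group (5 libraries) OT-I Tg cells of C57BL/6J background had been moved into C57BL6/J recipients that then received the peptide with rat IgG. In the Ag+Costim group (5 libraries) the recipients received the peptide with agonist antibodies to CD134 (OX40) and CD137 (4-1BB), and cells of these groups were collected 4 days later from spleen and lymph nodes by sorting for CD8+ T cells. The Naive group (2 libraries) was CD8+ T cells of OT-I Tg mice without transfer or peptide, so Naive and Ag cells differed by transfer, peptide, IgG and time in the host together. The recipients still had T cells of their own. The study's methods describe a sort of the transferred cells on CD8, the donor marker CD45.1 and the chains of the OT-I receptor, whereas the labels name CD8 alone. Every recipient library was of one time point. The 4 days are those of the labels, and the study's methods give a slightly shorter time.

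The gene count totals ran from 23976932 in Ag 4, the shallowest library, to 49258758, and the next lowest was 39994606. The 8 markers of CD8 T cells, among them Cd3e, Cd8a and Trac, summed to between 12882 and 13591 CPM (counts scaled to the size of the library) in Naive, 10442 to 13332 in Ag and 5562 to 7673 in Ag+Costim. The 5 B cell markers stayed at 21.99 to 155 CPM in all libraries, with the higher values in Ag (101 to 155). The 5 erythroid markers, which are globins and Alas2, reached 588 to 6720 CPM in Ag against 14.0 to 210.4 in Ag+Costim and 168 to 2312 in Naive. The 5 proliferation markers, such as Mki67 and Top2a, summed to 34.0 to 35.7 CPM in Naive, 426 to 921 in Ag and 1779 to 2243 in Ag+Costim. The 3 CD4 T cell markers summed to 3.62 to 24.6 CPM and the 7 myeloid markers to 34.5 to 196 CPM over all libraries. The 37 mitochondrial transcripts summed to 12065 to 14435 CPM in Naive, 6938 to 22796 in Ag and 5591 to 8233 in Ag+Costim. Ag 4 had the highest erythroid and mitochondrial sums of all libraries besides the lowest depth, and the next highest mitochondrial sum in Ag was 11990. The part of these other levels in the results below was not tested. In bulk RNA a gene's level cannot be split into the number of cells that express it and the amount of RNA in each.

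Some of these genes carry poly(A) signals inside their own bodies, and the ends of their annotated transcripts are shown first because the transcript results below turn on them. Each line gives the last 30 bases, or the 30 bases that hold the signal, of a GENCODE transcript on mm10, 5′ to 3′, with the AATAAA or ATTAAA hexamer in capitals. The first group is Cstf3, whose short transcripts Cstf3-202 and Cstf3-206 both end in intron 3 of the 21-exon full-length Cstf3-201.
Cstf3-201: gaaaggAATAAAaggacctcaaaaacatgc
Cstf3-202: caagaaAATAAAgctttgttaatacgttgt
Cstf3-206: tgcaacaacATTAAAacagtttcaatggtg

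The second group is Pcf11, whose single-exon Pcf11-205 ends in intron 1 of the 16-exon Pcf11-201.
Pcf11-201: tacagtATTAAAacttgtgattttttttcc
Pcf11-205: aaaatttgtgAATAAAacatataaaatatg

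The third group is Cstf2, whose Cstf2-203 stops 773 bases before Cstf2-201 within the same last exon, and whose Cstf2-202 ends in intron 11.
Cstf2-201: ctgtcgtggattcAATAAAtattttaaaag
Cstf2-202: atatagAATAAAaatgtattttctgttgta
Cstf2-203: tactgttgtaataatacagttagctacccc

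Only the transcript strand was searched, over the last 50 bases. Of these 8 ends, Cstf2-203 held neither hexamer. Among all 141672 annotated transcripts searched in the same way, 26.6% held AATAAA, 8.63% held ATTAAA and 33.8% held at least 1 of them. The match is a description of the letters and not of a used site.

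Costimulation raised the RNA of 6 of the 10 factors over antigen alone and lowered none. Cpsf1, Cpsf2, Cstf2, Cpsf4, Cpsf6 and Cstf1 were higher in Ag+Costim, in that order of fold, whereas Cpsf3, Nudt21, Cstf3 and Pcf11 did not pass the test. Across all genes tested, 26.6% were called higher and 26.5% lower in this comparison (edgeR quasi-likelihood test, Benjamini-Hochberg adjusted p below 0.05), so that 60.0% of the members against 26.6% of all genes were called higher. The median log2 fold change was 0.51 over the 10 members and -0.05 over all genes tested. These counts describe the members and are no test of the list. Under upper-quartile scaling the median of all genes moved from -0.05 to -0.24, the share of calls that were higher went from 50.1% to 39.0%, and 5 members were called higher, all but Cstf1. Without Ag 4, which stood apart, 7 members were called higher and 0 lower, Pcf11 being added, and the counts against Naive stayed at 4 and 8.

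**Figure D1:**
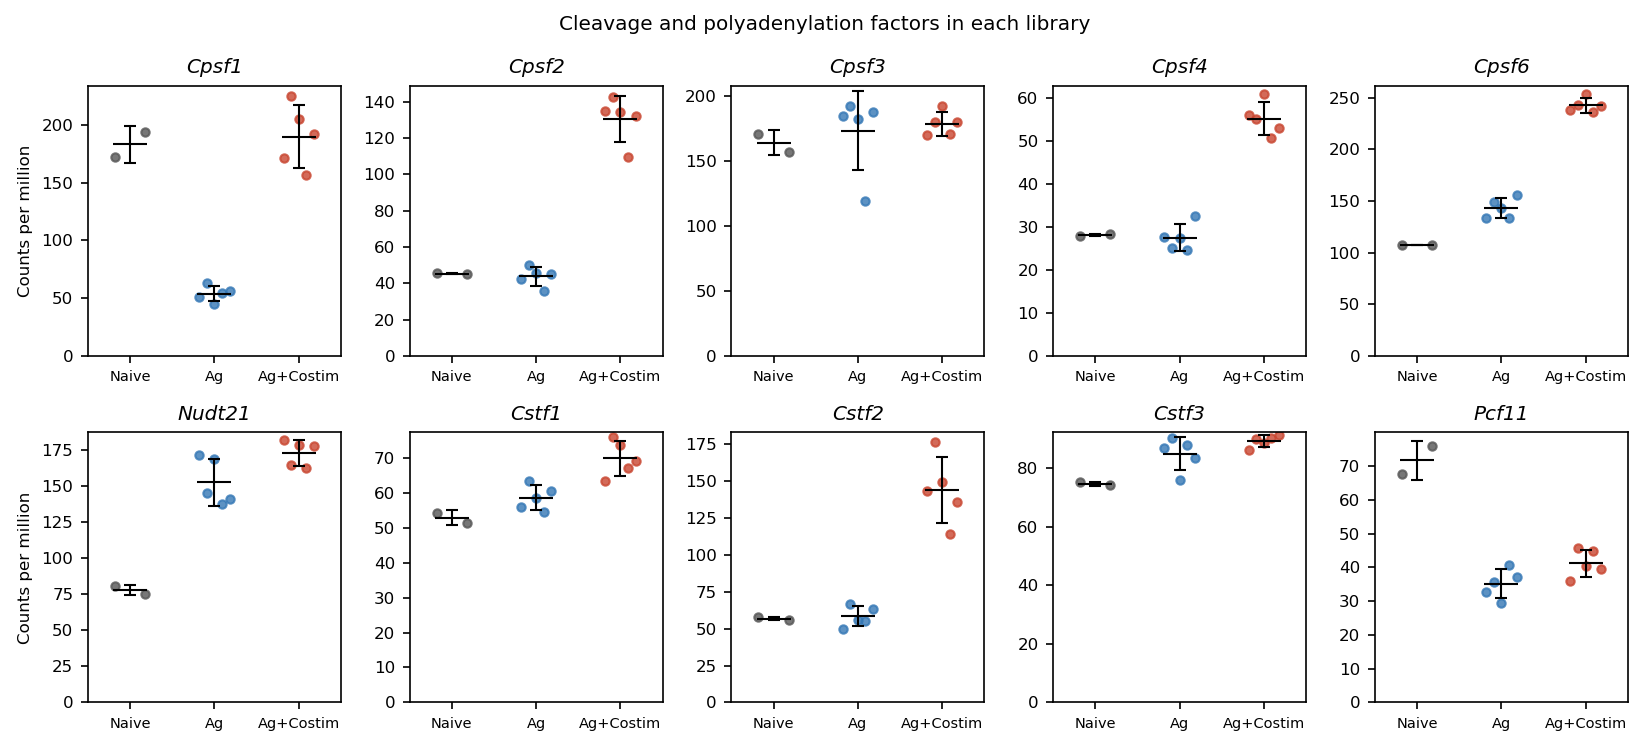
CPM of each of the 10 factors (vertical axes start at 0), with 1 point per library, the group mean as a bar and the SD as error bars for Naive (n = 2), Ag (n = 5) and Ag+Costim (n = 5). Cpsf1 is low only in the Ag libraries, Cpsf2, Cpsf4 and Cstf2 are high only in the Ag+Costim libraries, Nudt21 is lowest in Naive and Pcf11 is highest in Naive.

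Within CPSF the subunits parted ways. Cpsf1, the largest CPSF subunit and a scaffold of the complex, stood at 51.0, 62.9, 44.9, 54.5 and 56.3 CPM in the Ag libraries and at 171, 225, 205, 156 and 192 CPM in the Ag+Costim libraries. It was at 172 and 194 CPM in the Naive libraries. The Ag libraries thus lay below every other library, and Naive and Ag+Costim overlapped. Its mean of 189.9 ± 27.1 CPM (SD, n = 5) in Ag+Costim was 3.52-fold that of 53.9 ± 6.64 in Ag (log2 fold change 1.82, SE 0.12, adjusted p = 5.77e-08). Against Naive it fell in Ag to 0.294-fold (log2 fold change -1.76, SE 0.14, adjusted p = 6.25e-07), and Ag+Costim and Naive were not separated (log2 fold change 0.05, 95% interval -0.27 to 0.37, adjusted p = 0.79).

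Cpsf2, the structural partner of the endonuclease, had another pattern. It stood at 42.4, 49.8, 45.5, 35.8 and 45.2 CPM in Ag, at 135, 143, 134, 109 and 132 CPM in Ag+Costim, and at 45.5 and 45.0 CPM in Naive. Every Ag+Costim library lay above every other library. The rise over Ag was 2.98-fold (log2 fold change 1.58, SE 0.10, adjusted p = 5.15e-08) and that over Naive was 2.89-fold (log2 fold change 1.53, SE 0.14, adjusted p = 1.27e-06). Between Ag and Naive no change was called (log2 fold change -0.05, 95% interval -0.32 to 0.23).

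Cpsf3, the endonuclease that makes the cut, was among the most abundant members and was not called in any comparison. Its values were 185, 192, 182, 119 and 188 CPM in Ag, 170.3, 179.7, 193, 171 and 179.8 CPM in Ag+Costim, and 171 and 157 CPM in Naive. The groups overlapped, and Ag 4 stood apart at the low end. The log2 fold change between Ag+Costim and Ag was 0.04 (95% interval -0.20 to 0.29, adjusted p = 0.778). Without Ag 4 the estimate turned to -0.06 and was still not called (adjusted p = 0.416). On the per-length scale of FPKM, which allows levels of different genes to be compared, Cpsf3 stood at 69.5 ± 10.7 in Ag and 69.2 ± 2.91 in Ag+Costim, against 7.49 ± 0.766 and 21.7 ± 2.11 for Cpsf2. The log2 ratio of Cpsf2 to Cpsf3 in FPKM therefore went from -3.20 ± 0.14 in Ag to -1.68 ± 0.13 in Ag+Costim (SD, n = 5 each), with -3.11 ± 0.06 in Naive (n = 2).

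Cpsf4, the zinc finger subunit that contacts the AAUAAA signal, doubled. It stood at 27.6, 25.1, 27.5, 24.7 and 32.5 CPM in Ag and at 55.9, 55.1, 60.9, 50.7 and 53.1 CPM in Ag+Costim, with 27.9 and 28.3 CPM in Naive. The Ag+Costim libraries did not overlap with either of the other groups. The log2 fold change over Ag was 1.00 (SE 0.09, adjusted p = 1.00e-06) and that over Naive 0.97 (SE 0.13, adjusted p = 2.99e-05), while Ag and Naive were not separated (log2 fold change -0.03, 95% interval -0.29 to 0.23).

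The CFIm genes moved at different steps. Nudt21, the subunit that binds UGUA, was higher in Ag than in Naive. Cpsf6, its larger partner, was higher in Ag than in Naive and higher again in Ag+Costim. Nudt21 stood at 80.4 and 75.3 CPM in Naive, at 172, 145, 169, 137 and 141 CPM in Ag, and at 182, 164, 178, 163 and 178 CPM in Ag+Costim. Both stimulated groups lay above Naive and overlapped with each other. Its log2 fold change was 0.97 between Ag and Naive (SE 0.11, adjusted p = 1.59e-05) and 1.15 between Ag+Costim and Naive (SE 0.12, adjusted p = 2.90e-06). Between Ag+Costim and Ag it was 0.18 (95% interval 0.00 to 0.36, adjusted p = 0.0816), which missed the threshold. It passed without Ag 1 (adjusted p = 0.0407), Ag 3 (0.0466) or Ag+Costim 4 (0.0488), and its sign depended on scaling, with -0.02 under upper-quartile scaling and -0.22 under an offset for transcript length.

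Cpsf6 stood at 108 CPM in each Naive library, at 134, 149, 143, 133 and 156 CPM in Ag, and at 238, 243, 254, 236 and 242 CPM in Ag+Costim. No library of any group overlapped with another group. The log2 fold change was 0.41 from Naive to Ag (SE 0.09, adjusted p = 0.00242) and 0.76 from Ag to Ag+Costim (SE 0.07, adjusted p = 7.89e-07). The first of these steps was not called on log2(FPKM + 1), at 0.21 (adjusted p = 0.0962). The log2 ratio of Cpsf6 to Nudt21 in FPKM was -0.84 ± 0.44 in Ag and -0.05 ± 0.20 in Ag+Costim. Every Ag+Costim library lay above every Ag library, with -0.35 and 0.22 in the Naive libraries. The FPKM of Nudt21 sums transcripts of different length, so this ratio also moves with their mix. The main transcript, Nudt21-201, held 83.3% ± 6.15 of the gene's counts in Ag and 91.7% ± 4.74 in Ag+Costim. In gene counts from Ag to Ag+Costim, Cpsf6 moved by 0.76 and Nudt21 by 0.18 on the log2 scale.

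Within CstF, Cstf2 changed and its partners changed little. Cstf2, the RNA-binding subunit, stood at 49.8, 66.8, 55.8, 55.4 and 63.4 CPM in Ag, at 144, 177, 149, 114 and 136 CPM in Ag+Costim, and at 57.7 and 55.9 CPM in Naive. Its Ag and Naive values overlapped, and all Ag+Costim libraries lay above them. The rise over Ag was 2.47-fold (log2 fold change 1.30, SE 0.12, adjusted p = 7.25e-07) and that over Naive 2.53-fold (log2 fold change 1.34, SE 0.16, adjusted p = 1.48e-05). From Naive to Ag its log2 fold change was 0.04 (95% interval -0.29 to 0.36).

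Cstf1, the subunit with WD repeats, stood at 56.0, 63.4, 58.4, 54.5 and 60.5 CPM in Ag and at 63.5, 76.0, 73.6, 67.2 and 69.2 CPM in Ag+Costim. The groups fell just short of overlap, since the highest Ag library and the lowest Ag+Costim library were at about the same level. The rise was small, at 0.25 on the log2 scale (SE 0.08, adjusted p = 0.0113). It was not called under upper-quartile scaling (0.06, adjusted p = 0.495) and became -0.01 with the length offset (adjusted p = 0.958). Against Naive, at 54.4 and 51.3 CPM, Cstf1 was higher in Ag+Costim by 0.40 on the log2 scale (SE 0.10, adjusted p = 0.00450), and without Naive 2 this was not called (adjusted p = 0.0636).

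Cstf3, which bridges the complex, stood at 87.0, 90.6, 75.9, 88.0 and 83.7 CPM in Ag, at 86.2, 90.2, 88.6, 90.6 and 91.4 CPM in Ag+Costim, and at 75.3 and 74.3 CPM in Naive. The stimulated groups overlapped, and both lay above Naive. Costimulation moved its count by 0.07 on the log2 scale (95% interval -0.07 to 0.22, adjusted p = 0.392). From Naive to Ag it was 0.18 (adjusted p = 0.108), which passed without Ag 3 (adjusted p = 0.0423) and under upper-quartile scaling (0.23, adjusted p = 0.0499). Against Naive the count of Cstf3 was higher in Ag+Costim by 0.26 (SE 0.09, adjusted p = 0.0283), which was lost without Naive 1 (adjusted p = 0.118), Naive 2 (0.148) or Ag+Costim 5 (0.0521). Summed over its transcripts in FPKM the gene went the other way, from 52.9 ± 0.605 in Naive (n = 2) through 43.1 ± 6.34 in Ag to 35.2 ± 0.748 in Ag+Costim, and on log2(FPKM + 1) Ag+Costim was called lower than Ag, at -0.27 (limma, adjusted p = 0.0204), and lower than Naive, at -0.57 (adjusted p = 0.00114). The 2 units weigh transcripts differently, because FPKM divides each by its own length before they are added, and Cstf3 makes transcripts of very different length.

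In FPKM the log2 ratio of Cstf2 to Cstf1 was -0.36 ± 0.09 in Ag and 0.63 ± 0.16 in Ag+Costim (SD, n = 5 each), with -0.23 ± 0.09 in Naive. The log2 ratio of Cstf2 to Cstf3 went from -1.57 ± 0.23 in Ag to -0.01 ± 0.22 in Ag+Costim. In each ratio all 5 Ag+Costim libraries lay above all 7 others. The FPKM of Cstf3 sums its short and full-length transcripts, so the ratio of Cstf2 to Cstf3 also moves with their mix. In gene counts from Ag to Ag+Costim, Cstf2 moved by 1.30 and Cstf3 by 0.07 on the log2 scale.

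Pcf11, the CFIIm subunit that binds the C-terminal domain of RNA polymerase II, was the member called lower than Naive in both stimulated groups. It stood at 67.6 and 75.8 CPM in Naive, at 32.7, 35.6, 29.5, 40.8 and 37.2 CPM in Ag, and at 35.8, 45.6, 40.3, 44.7 and 39.5 CPM in Ag+Costim. Naive lay above both stimulated groups, which overlapped. The log2 fold change was -1.03 in Ag (SE 0.13, adjusted p = 2.89e-05) and -0.80 in Ag+Costim (SE 0.13, adjusted p = 0.000193). From Ag to Ag+Costim it was 0.23 (95% interval 0.01 to 0.45, adjusted p = 0.0779). That last difference passed the threshold without Ag 4 (0.29, adjusted p = 0.026) or without Ag+Costim 1 (0.27, adjusted p = 0.0474), and changed sign to -0.19 with the length offset (adjusted p = 0.058).

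**Figure D2:**
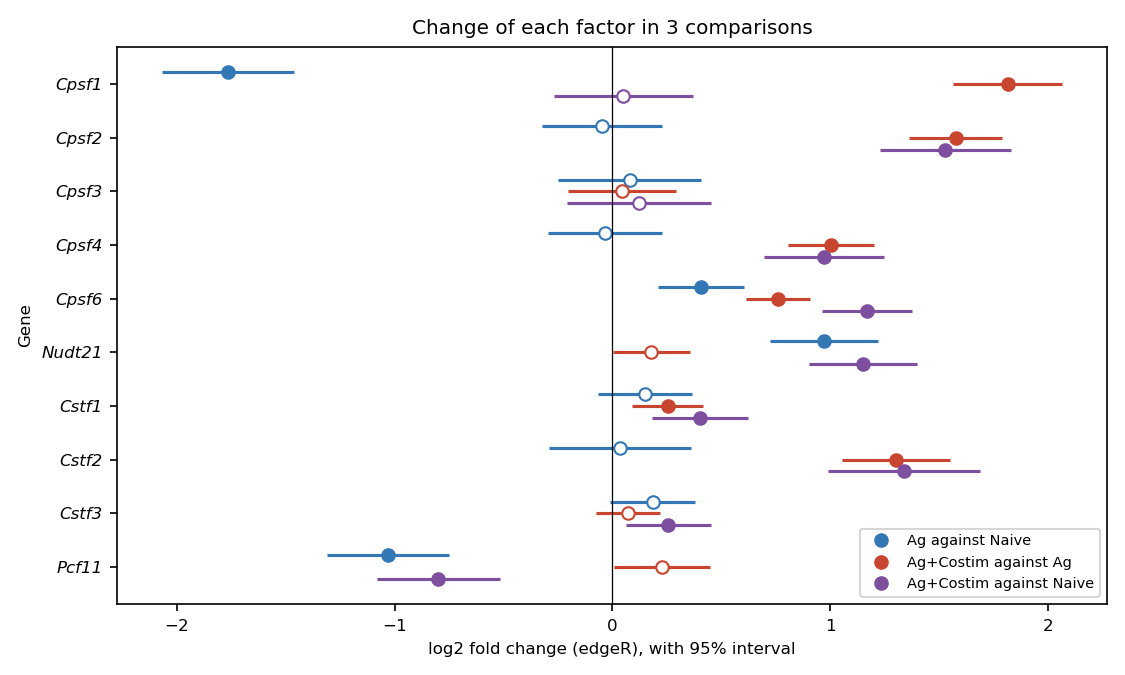
log2 fold change of each of the 10 factors in the 3 comparisons with its 95% interval (edgeR); filled points passed the adjusted threshold and open points did not. From Ag to Ag+Costim 6 points are filled on the right, and in Ag against Naive Cpsf1 and Pcf11 are filled on the left and Cpsf6 and Nudt21 on the right.

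Between Naive and Ag cells, which also differed by transfer, IgG and time in the host, 4 of the 10 factors were called. Cpsf6 and Nudt21 rose and Cpsf1 and Pcf11 fell, 2 of 10 in each direction, beside 24.2% of all genes called higher and 22.5% called lower. The median log2 fold change was 0.06 over the members and 0.02 over all genes. With the offset for transcript length 8 were called, since Cpsf2, Cstf1, Cstf2 and Cstf3 were then also higher in Ag (log2 fold changes 0.58, 0.46, 0.48 and 0.30). In Ag+Costim against Naive 7 members were higher, namely Cpsf2, Cpsf4, Cpsf6, Nudt21, Cstf1, Cstf2 and Cstf3, and Pcf11 was lower. All genes gave 26.9% higher and 25.4% lower there. The 3 comparisons share libraries, so their values stand side by side and are not independent.

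Within groups the members differed in spread. The SD of the 5 Ag+Costim libraries was 2.29% of the mean for Cstf3, 2.91% for Cpsf6 and 15.7% for Cstf2, and that of the 5 Ag libraries ran from 6.06% for Cstf1 to 17.5% for Cpsf3.

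Per length, in FPKM (n = 5 in each stimulated group), the order of the members also changed. In Naive it ran from Cpsf3 (75.1) through Cstf3 (52.9), Cpsf1 (48.1), Nudt21 (28.5), Cpsf6 (26.8), Pcf11 (20.2), Cpsf4 and Cstf1 (18.2 each) and Cstf2 (15.5) to Cpsf2 (8.70). In Ag Cpsf3 still led at 69.5 ± 10.7, with Nudt21 second at 56.9 ± 12.5 within its spread, and Cpsf1 (12.9 ± 1.94), Pcf11 (8.10 ± 1.15) and Cpsf2 (7.49 ± 0.766) came last. In Ag+Costim Cpsf3 (69.2 ± 2.91) was followed by Nudt21 (49.2 ± 6.18), Cpsf6 (47.3 ± 2.07) and Cpsf1 (41.2 ± 5.42), which did not differ beyond their spread from neighbour to neighbour, then by Cstf3 (35.2 ± 0.748), Cstf2 (35.1 ± 5.04) and Cpsf4 (30.6 ± 2.42). Pcf11 was last there, at 8.14 ± 0.889. Cstf3 was placed by FPKM summed over its short and full-length transcripts, whose mix differed between groups. The FPKM of Nudt21 also depended on the mix of its transcripts.

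A second question was whether the factors changed in which transcript they made. Of the 72 annotated transcripts of the members, 69 had counts, 20 held at least 10% of their gene's counts in at least 1 group, and 42 entered the usage test, which asks whether a transcript changed unlike the rest of its gene. In Ag+Costim against Ag the test called 2 of the 42, beside 2.57% of the 41844 transcripts tested. In Ag against Naive it called 1, beside 1.66% of all transcripts. These called transcripts, Pcf11-203 and Cpsf4-201, fell outside the rule for named transcripts and are named after their values were seen.

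Pcf11-203, a protein-coding transcript (chr7:92644260-92663537, minus strand) that starts downstream of the first exon of Pcf11-201, had 294 and 218 counts in Naive, 20, 3, 3, 0 and 12 in Ag, and 140, 318, 147, 95 and 26 in Ag+Costim. The Ag libraries lay below all others. Its share of Pcf11 counts averaged 7.49% in Naive, 0.509% in Ag and 7.84% in Ag+Costim (adjusted p = 0.0318 for Ag against Naive and 0.0060 for Ag+Costim against Ag). Cpsf4-201 was at 0 counts in all Ag and Naive libraries and in Ag+Costim 1 and 2, and had 22, 100 and 39 counts in Ag+Costim 3 to 5. The call (adjusted p = 0.042) rested on those 3 libraries, and it was lost without any of Ag+Costim 3, 4 and 5 or any of the 5 Ag libraries (adjusted p from 0.0522 to 0.170). Without Ag 2, Cpsf1-219 was called in its place.

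The short Cstf3 transcripts held a smaller share of the gene's counts in Ag than in Naive, and a smaller one again in Ag+Costim. Both are annotated as retained-intron transcripts. Whether reads of unspliced Cstf3 RNA entered their counts was not tested, so their share is not a measure of poly(A) site use alone. Cstf3-202 and Cstf3-206 together took 42.7% and 42.8% of the Cstf3 counts in Naive, 22.9, 24.1, 20.5, 27.9 and 16.3% in Ag, and 11.9, 11.2, 11.2, 12.8 and 11.7% in Ag+Costim. No group overlapped with another. The means were 42.7% ± 0.107 (SD, n = 2), 22.3% ± 4.32 and 11.8% ± 0.657 (n = 5 each). Cstf3-201 held 56.8% ± 0.216, 77.3% ± 4.39 and 88.0% ± 0.67 in the same order.

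In amount rather than share, the short Cstf3 transcripts stood at 28.6 ± 0.641 CPM in Naive, 19.0 ± 3.94 in Ag and 11.03 ± 0.526 in Ag+Costim, and Cstf3-201 stood at 38.0 ± 1.09, 65.8 ± 4.86 and 82.4 ± 2.05 CPM. These levels come from the transcript table, which was scaled separately from the gene table, so they do not add up to the gene's CPM given above. Cpsf2, with 1 annotated transcript, shows the offset, at 40.4 CPM in Naive and 137 in Ag+Costim in the transcript table against 45.2 and 131 in the gene table. An exact permutation test over libraries of the summed short share gave p = 0.00794 for Ag+Costim against Ag, the smallest that 5 against 5 allows, and 0.0476 for Ag against Naive, the smallest that 5 against 2 allows. The sum was chosen after its values were seen. Over all transcripts the same exact test called no transcript after adjustment (adjusted p = 0.083 for Cstf3-201 and for Cstf3-206), and the usage test, whose spread is shared among the transcripts of a gene, did not call them either (Cstf3-206: log2 usage change -1.499, p = 0.0447, adjusted p = 0.473; Cstf3-202: -0.41, adjusted p = 1).

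Pcf11-205, the short transcript of Pcf11, took 19.9 and 18.03% of the gene's counts in Naive, 11.1, 15.4, 19.7, 14.8 and 15.3% in Ag, and 9.13, 9.48, 5.91, 7.39 and 10.2% in Ag+Costim. Each Ag+Costim library lay below each Ag library, while Ag and Naive overlapped. This transcript is a single exon that runs into intron 1. Whether reads of unspliced Pcf11 RNA entered its counts was not tested, so its share is not a measure of poly(A) site use alone. The means were 19.0% ± 1.33 (n = 2), 15.3% ± 3.02 and 8.42% ± 1.74 (n = 5 each), with an exact permutation p of 0.00794 between Ag+Costim and Ag (adjusted p = 0.083 over all transcripts) and 0.238 between Ag and Naive. The usage test did not call it (log2 usage change -0.86, adjusted p = 1). Pcf11-201 stood at 73.1% ± 3.55, 84.0% ± 2.75 and 83.6% ± 5.50, and no difference in its share was detected between Ag+Costim and Ag (exact permutation p = 0.913).

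**Figure D3:**
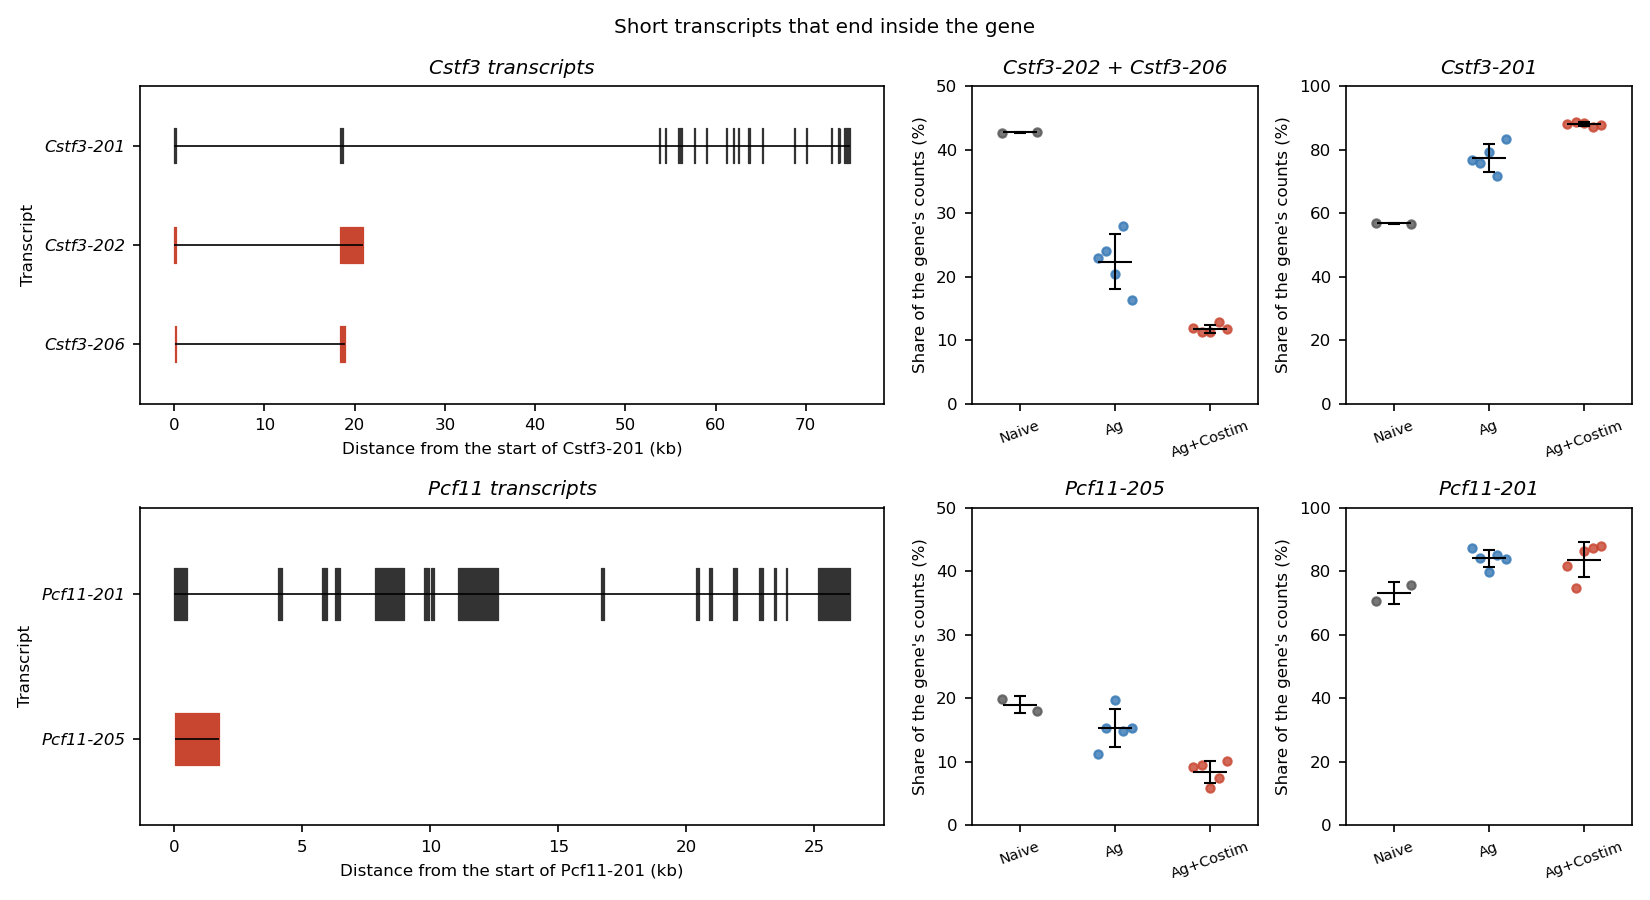
Left, exons (boxes) of the full-length and short transcripts of Cstf3 and Pcf11, in kb from the start of the full-length transcript; right, each transcript's share of its gene's counts in percent, with 1 point per library and the group mean with SD. The short Cstf3 transcripts go from 42.7% in Naive through 22.3% in Ag to 11.8% in Ag+Costim, and Pcf11-205 from 19.0% through 15.3% to 8.42%. Whether reads of unspliced RNA entered the counts of the short transcripts was not tested.

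The shares of some other transcripts scattered widely within a group. Cpsf1-219, annotated as a target of nonsense-mediated decay, was at 0 in 4 Ag libraries and at 45.1% in Ag 2, and in Ag+Costim it was at 0 in libraries 1 and 2 and at 27.5, 16.6 and 40.4% in libraries 3 to 5. Cpsf4-205 ran from 15.4 to 83.4% among Ag+Costim libraries. Cstf2-203 stood at 10.4% ± 3.99 in Ag and 15.5% ± 12.6 in Ag+Costim, with values from 2.81 to 29.3% in the latter, and Cstf2-201 at 73.4% ± 8.60 and 66.6% ± 15.7. Cpsf6-201, Nudt21-201, Cstf1-201 and Cpsf3-201 each remained the main transcript of their gene, with mean shares of at least 69.7% in every group, and Cpsf2 had 1 annotated transcript.

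The splicing and end-use values deposited for Ag and Ag+Costim give 1 Psi value per group for each node of a gene. They carry no replicate error, and no test was made. For a core exon Psi is the fraction of transcripts that include it. For a start or end node it is the use of that start or end relative to the alternative ones beside it. Of the 166 nodes of the members, 9 differed by more than 0.05 between the groups, which is 5.42% beside 19.1% of all 115403 nodes. By type these were 6 of 13 alternative starts (46.2%, beside 39.7% of all such nodes), 2 of 12 alternative ends (16.7%, beside 44.7%) and 1 of 134 core exons (0.746%, beside 12.9%). Core exons made up 134 of the 166 member nodes and 89034 of all 115403, so the shares over all types also reflect the mix of types. The 134 core exons had a median Psi of 0.988 in Ag and 0.996 in Ag+Costim, so nearly all were included nearly always.

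Cstf2 held the only end nodes past the threshold. Its nearer end (chrX:134084232-134086046), which is that of Cstf2-203, had a Psi of 0.224 in Ag and 0.370 in Ag+Costim, and the farther stretch (chrX:134086047-134086819, the last 773 bases of Cstf2-201) went from 0.776 to 0.630. The share of Cstf2-203 in the transcript counts, another measure with a value per library, ran from 3.84 to 14.1% in Ag and from 2.81 to 29.3% in Ag+Costim. No difference in that share was detected (exact permutation p = 0.397). The starts of Cstf2 also differed, with 0.247 to 0.149 for the start node at chrX:134059197-134059214 and 0.379 to 0.448 for that at chrX:134059215-134059422. In Cpsf4 the start nodes at chr5:145167224-145167246 and chr5:145167247-145167253 went from 0.318 to 0.447 and from 0.441 to 0.292. The first of these nodes begins at the annotated start of Cpsf4-201, which had 0 counts in all Ag libraries. How counts were divided among Cpsf4 transcripts with nearby starts was not tested. In Nudt21 the starts went from 0.610 to 0.535 and from 0.391 to 0.465. In Pcf11 the core exon at chr7:92659798-92659888 went from 0.901 to 0.961. Its deposited entropy score was 0, whereas the other nodes past the threshold had scores above 0.5.

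**Figure D4:**
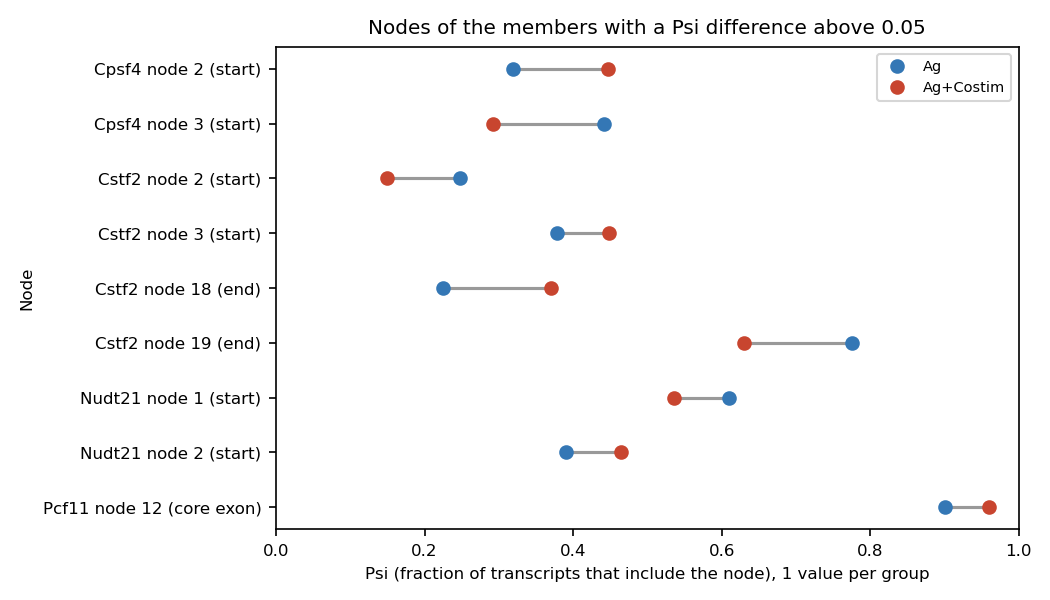
Psi (horizontal axis, 0 to 1, 1 value per group) of the 9 nodes of the members that differ by more than 0.05, Ag in blue and Ag+Costim in red. The wording of the axis label holds for the core exon, while for start and end nodes Psi is the relative use of that start or end. The nearer end of Cstf2 (node 18) goes from 0.224 to 0.370 and the farther one (node 19) from 0.776 to 0.630.

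Around the core subunits, 44 other genes of 3′ end formation were listed and all 44 were tested. Costimulation raised 31 of them over Ag and lowered 2, 70.5% and 4.55% beside 26.6% and 26.5% of all genes tested, with a median log2 fold change of 0.66 beside -0.05. In Ag against Naive 11 were higher and 21 lower, 25.0% and 47.7% beside 24.2% and 22.5% of all genes, a balance that turned to 14 higher and 7 lower with the length offset. That offset also moved all genes, with the share of calls that were higher going from 51.9% to 60.0% and the median log2 fold change from 0.02 to 0.08. In Ag+Costim against Naive 23 of the 44 were higher and 3 lower, 52.3% and 6.82% beside 26.9% and 25.4% of all genes. The list was drawn up with results of these data known, and its counts are a description.

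Closest to the members, Sympk, the scaffold that joins CPSF and CstF, rose most, from 6.998 ± 1.81 CPM in Ag to 72.0 ± 9.01 in Ag+Costim (log2 fold change 3.36, SE 0.17, adjusted p = 1.43e-08), and stood at 45.1 ± 2.99 CPM in Naive. Like Cpsf1 it was lower in Ag than in Naive. The CPSF subunits Wdr33 and Fip1l1 moved little on the log2 scale. Wdr33 was at 0.19 (SE 0.07, adjusted p = 0.0329), and Fip1l1 was not called (0.11, SE 0.07, adjusted p = 0.232). On the CPSF, symplekin and poly(A) polymerase side, 3 of 7 listed genes were higher (42.9%, beside 26.6% of all genes), with a median of 0.19. The paralogue of Cpsf6, Cpsf7, rose with costimulation by 0.76 on the log2 scale (SE 0.18, adjusted p = 0.00253). It stood at 48.2 ± 1.58 CPM in Naive, 22.8 ± 8.25 in Ag and 38.6 ± 2.21 in Ag+Costim. Between Ag+Costim and Naive Cpsf7 was not called (-0.32, adjusted p = 0.257). The paralogue of Cstf2, Cstf2t, was not called between Ag+Costim and Ag (0.33, SE 0.14, adjusted p = 0.0555). Without Ag 2, Ag 5 or Ag+Costim 5 Cstf2t was called, at 0.41, 0.40 and 0.41, and with the length offset it stood at -0.04. Whether reads from stretches alike in Cstf2t and Cstf2 were split between these paralogues was not tested. The Integrator subunits, which cut snRNAs and promoter-near RNA with enzymes related to Cpsf2 and Cpsf3, rose in 13 of 14 cases (92.9%, beside 26.6% of all genes), led by Ints1 (2.14, SE 0.23, adjusted p = 3.44e-06) and Ints2 (2.0, SE 0.17, adjusted p = 5.43e-07). Ints1 stood at 46.4 ± 4.16 CPM in Naive, 15.5 ± 5.72 in Ag and 67.8 ± 14.9 in Ag+Costim. Between Ag+Costim and Naive Ints1 was not called (adjusted p = 0.133), whereas 12 of the 14 Integrator genes were higher there (85.7%, beside 26.9% of all genes). Snrnp70, a protein of the U1 snRNP that is known to hold back early poly(A) sites, stood at 164 ± 15.5 CPM in Naive, 51.8 ± 4.34 in Ag and 171 ± 13.5 in Ag+Costim (1.72 higher in Ag+Costim on the log2 scale, SE 0.09, adjusted p = 1.08e-08). The 2 genes called lower were Lsm10, of the U7 snRNP of histone mRNA (-1.08, SE 0.12), and the polymerase phosphatase Ssu72 (-0.40, SE 0.09), of which Ssu72 was not called with the length offset.

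**Figure D5:**
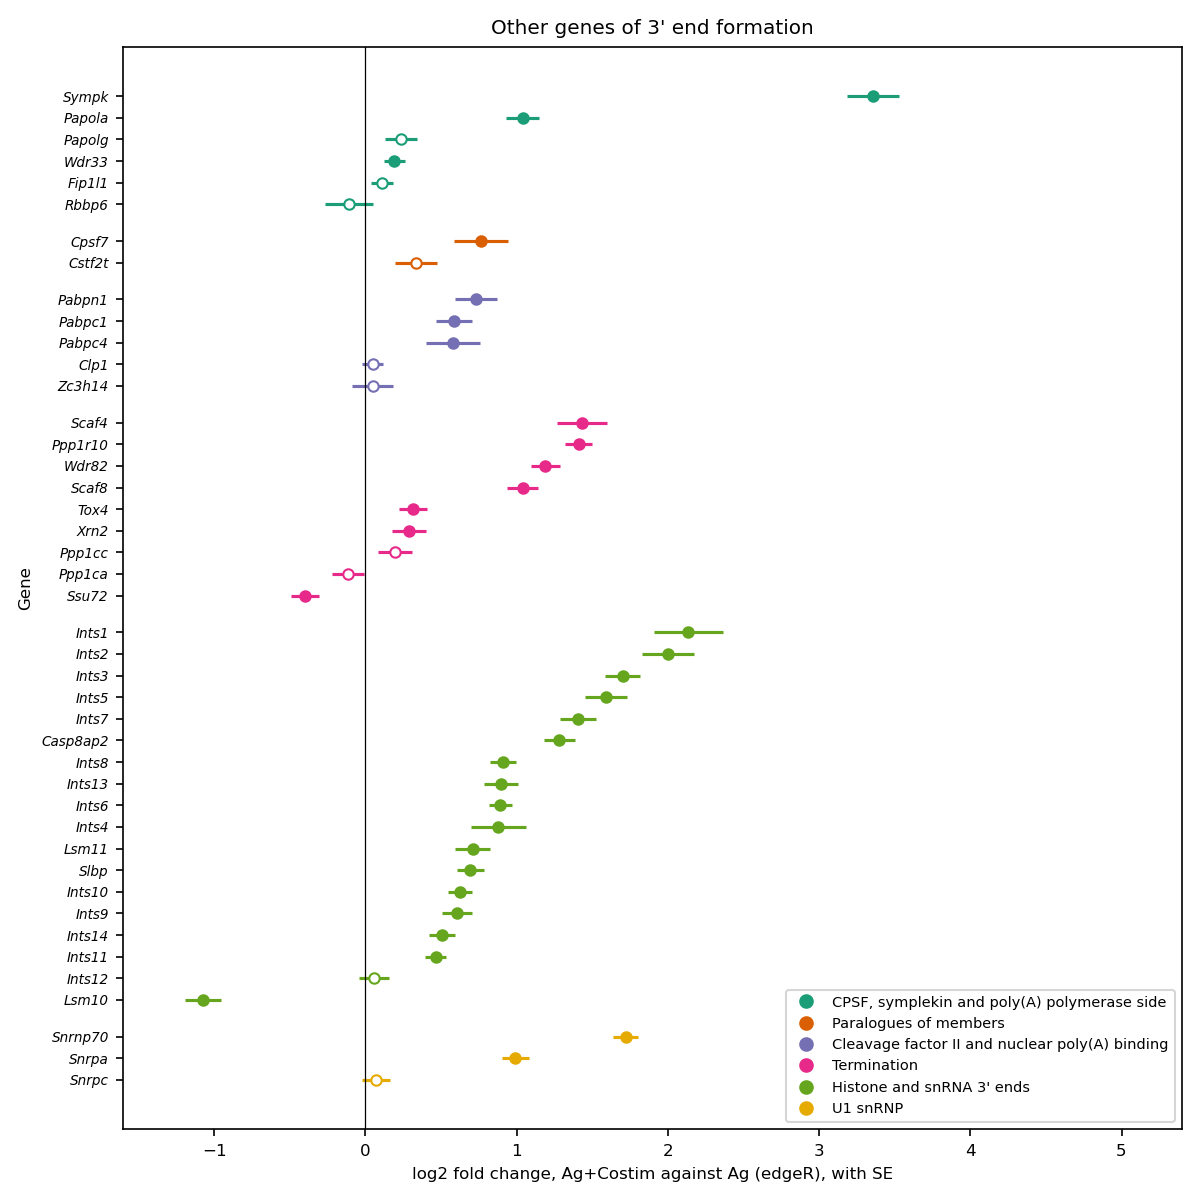
Change from Ag to Ag+Costim on the log2 scale with its SE (edgeR) for the other genes of 3′ end formation by role; filled points passed the adjusted threshold, and Cpsf4l, at a very low level, is not drawn. Sympk lies farthest right at 3.36, and 13 of 14 Integrator genes are filled on the right.

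By pattern over the 12 libraries, the genes most like Cstf2 among 9252 genes with a mean log2 CPM above 3 were Hacd3, E2f4, Haus6, Senp1 and Rfwd3, with Pearson correlations of log2 CPM from 0.989 to 0.994. Those most like Nudt21 were Gm7488, H2afz, Gm10282, Gm10357 and Gm10182, from 0.995 to 0.996, where the names beginning with Gm are predicted genes that may share reads with other loci. The libraries form 3 groups, so such values largely restate the group means, and no other member was among them.

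Overlap with other annotated genes limits some values. Cpsf1, Cpsf2, Cpsf3, Cstf2, Cstf3 and Pcf11 overlap another gene, Cpsf3 and Cstf2 on the same strand, and the library kit does not mark strand, so reads in those stretches cannot be assigned with certainty. Cpsf4, Cpsf6, Nudt21 and Cstf1 overlap none.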

How the data were processed

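RNA-seq libraries of the Naive (2), Ag (5) and Ag+Costim (5) groups were grouped by their labels. The members and gene lists were chosen with earlier results of these data known. The gene and transcript counts were made by the authors with HISAT2 2.1.0, SAMtools 1.9 and StringTie 2.1.0 on mm10, from single 100-base reads of an unstranded kit. They summed to 90.8 to 107% of the listed reads, more than were listed as aligned, and the cause was not tested. Reads listed as aligned were 72.3 to 76.5 percent per the deposited lane sheet. FPKM values were deposited by the authors, 1 entry per transcript, and were summed here by gene symbol. Psi, a fraction, and the entropy score of each node came from Whippet as deposited by the authors, 1 value per group. The authors' own Psi difference and its probability were not used. IDs were matched to GENCODE M21, and 26345 unannotated entries (at most 0.121% of counts) were left out.

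Genes were tested with edgeR 4.0.16 (TMM scaling, filterByExpr, robust quasi-likelihood fit of all 12 libraries, 1 term per group, two-sided, Benjamini-Hochberg over all genes, threshold 0.05), transcript usage with diffSpliceDGE of the same package over 41844 transcripts, and Psi was compared without a test at a difference of 0.05. Alternatives were upper-quartile scaling, DESeq2 1.42.0, no filter, 2 groups only, an offset for transcript length (lowess), the replicate number as a block, limma 3.58.1 on log2(FPKM + 1) or log2(FPKM + 0.1) with at least 1 FPKM in 2 libraries or no filter, and leaving out each library. Fold changes on log2(FPKM + pseudocount) understate those of low genes. On simulated counts the gene test recovered 67.0% of 200 genes changed 2-fold among 18817, and called 7 unchanged genes. The usage test recovered 84.0% of 200 transcripts changed by more than 2-fold among 41844, and called 38 transcripts of unchanged genes. The simulated counts had 1 fixed spread for all genes and transcripts, so these rates describe the simulation and not the power in these libraries. Between replicates the chi-square per degree of freedom was 25.0 to 172, so none was a duplicate. Each library is a separate biological replicate per the study's methods. Named were all members, Cstf2t, Cpsf7, the 4 largest rises and up to 4 falls among called genes of the list, transcripts with at least 10% of their gene, nodes past 0.05, and the 5 genes most like Cstf2 and Nudt21. Wdr33 and Fip1l1 were named outside that rule, as CPSF subunits of the list.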

Additional observations from a re-analysis of the deposited data

Results flagged for a closer look

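In 5 of 68 groups of 5 values looked at (member CPM, transcript shares, subunit ratios), 1 library lay far from the other 4 by Dixon's criterion, which chance alone meets in about 1 of 20 groups. Cpsf3 stood at 119 CPM in Ag 4, the shallowest library, against 182 to 192 in the other Ag libraries. Cpsf1-201 held 45.3% of Cpsf1 counts in Ag 2, against 86.2 to 92.8% in the others, and Cpsf1-219 held 45.1% there against 0%. Cpsf6-208 held 7.53% of Cpsf6 counts in Ag 4, against 1.76 to 3.20%. Cpsf4-207 held 20.8% of Cpsf4 counts in Ag+Costim 1, against 3.13 to 6.88% in the other Ag+Costim libraries. The causes were not tested.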

How the results depend on the processing

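The rises of Cpsf1, Cpsf2, Cpsf4, Cpsf6 and Cstf2 from Ag to Ag+Costim kept their direction and their call under all 10 alternatives and without each of the 12 libraries. The count of members called ran from 5 to 8 under the alternatives and from 6 to 7 with one library left out in this comparison, from 3 to 8 and 4 to 5 in Ag against Naive, and from 7 to 8 and 6 to 8 in Ag+Costim against Naive. The sign of smaller changes depended on the setting, and the cause was not tested.

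In Ag+Costim against Ag, the log2 fold change turned to -0.15 for Cpsf3, -0.017 for Nudt21 and -0.12 for Cstf3 under upper-quartile scaling, and to -0.22 for Nudt21, -0.0051 for Cstf1, -0.19 for Pcf11 and -0.043 for Cstf2t with the length offset. On log2(FPKM + 1), with and without the filter, it was -0.19 for Nudt21 and -0.27 for Cstf3, and with a pseudocount of 0.1 it was -0.19 and -0.28. That of Cpsf3 ran from -0.064 to 0.083 with one library left out.

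In Ag against Naive, the length offset gave 8 members called (6 higher and 2 lower) and 21 other genes of 3′ end formation called, and Cpsf2 stood at 0.58. Cpsf4 was at 0.011 under upper-quartile scaling. On log2(FPKM + 1), with and without the filter, Cpsf3 was at -0.13, Cstf2 at -0.11 and Cstf3 at -0.30, and with a pseudocount of 0.1 they were at -0.13, -0.11 and -0.31. With one library left out Cpsf2 ran from -0.097 to 0.017, Cpsf4 from -0.0995 to 0.0027 and Cstf2 from -0.017 to 0.088. In Ag+Costim against Naive, upper-quartile scaling gave -0.10 for Cpsf1 and -0.030 for Cpsf3. On log2(FPKM + 1), with and without the filter, Cpsf1 was at -0.22, Cpsf3 at -0.12 and Cstf3 at -0.57, with a pseudocount of 0.1 they were at -0.23, -0.12 and -0.58, and Cpsf1 ran from -0.033 to 0.14 with one library left out.

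Libraries of the same replicate number in Ag and Ag+Costim deviated together only weakly (correlations 0.0159 to 0.0952, 3 of 5 best with their own number), so the number was not taken as a pairing. With the replicate block 8 members were called higher in Ag+Costim than in Ag, Nudt21 (0.18, adjusted p = 0.0459) and Pcf11 (0.23, adjusted p = 0.0432) being added, and Cpsf2 was at 0.030 in Ag against Naive. With the replicate block and the length offset together, Ag+Costim against Ag gave 5 rises and 2 falls among the members, the falls being Nudt21 (-0.21, adjusted p = 0.0444) and Pcf11 (-0.19, adjusted p = 0.0431), while Cstf1 was at -0.0055 and Cstf2t at -0.040. In Ag against Naive that fit called 8 members, with Cpsf2 at 0.62.

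Of the 2 member transcripts called for usage, 1 was called with the replicate block, 1 to 2 with one library left out, and 0 by the exact permutation test, which called 0 of 41023 transcripts since its smallest p is 0.00794. A Psi difference of 0.1 left 4 nodes of the members, and of 23 nodes with an entropy above 0.5, 8 differed by more than 0.05. With 2 Naive libraries, comparisons with Naive rest on the spread shared by all groups.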
